A study of Mus musculus with 72 samples.

Results

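Xcl1, Ccl1, Ccl3, Ccl4, Ccl5 and Cxcl10 are 6 genes for secreted chemokines, taken by name from the 55487 genes of a count table for mouse OT-I CD8+ T cells, and all 6 were counted in it. OT-I T cells carry a transgenic receptor for the ovalbumin peptide SIINFEKL. Their splenocytes were cultured after lysis of red cells, so other spleen cells could be present, and were stimulated with IL-2 (100 IU/mL) and peptide (10 ng/mL). The groups were CB-839 (1 µM), which inhibits glutaminase, DON (1 µM), an analog of glutamine that blocks many of the enzymes using it, medium without glutamine, and vehicle, each at 4 h, 24 h and 48 h, and unstimulated cells, with 4 libraries lettered A to D in each of 13 groups. All stimulated groups shared the peptide and IL-2, and 1 vehicle group stood for both solvents, DMSO and PBS. Since the labels name neither separate animals nor separate cultures, p-values rest on the spread among these libraries alone, and that spread may be technical.

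Chemokines guide the movement of other leukocytes through G protein-coupled receptors. Activated CD8+ T cells are known for a burst of XCL1, which draws dendritic cells that bear the receptor XCR1, and of CCL3 and CCL4, which like CCL5 draw monocytes and T cells. CCL1 acts on CCR8 and CXCL10, an interferon-induced chemokine, on CXCR3. CCL5 is known as a product of memory T cells, which store it ready for release.

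In mm10 with GENCODE M25, Ccl5 (chr11:83525778-83530518), Ccl3 (chr11:83647844-83649355) and Ccl4 (chr11:83662584-83664683) lie in 1 cluster, with 117325 bases between Ccl5 and Ccl3 and 13228 bases between Ccl3 and Ccl4. Ccl4 is on the plus strand and the other 5 genes are on the minus strand. Ccl1 has a long gene model on the same chromosome (chr11:82176657-82305690), Xcl1 is at chr1:164931644-164935527 and Cxcl10 is at chr5:92346638-92348889. Exons of Xcl1 share 18.7% of their bases with Gm20743 and exons of Cxcl10 share 5.91% with Art3, both on the opposite strand. Counting did not use strand, so reads of these overlapping genes cannot be told apart.

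Promoters of 4 of the 6 genes matched the RefSeq table for GRCm38.p6. The 250 bases before the start are shown, on the minus strand and 5′ to 3′, for Xcl1 and Ccl3, chosen as genes that were high at 4 h, and for Cxcl10, chosen for its rise without glutamine at 48 h. Capitals mark the letters found by a search of both strands for 4 motifs: GGAAA (the core of NFAT sites), TGANTCA (AP-1), GGGA then any base then TTTCC (a kB form) and GAAA then any 2 bases then GAAA (an interferon response form).
Xcl1 (chr1:164935523-164935772): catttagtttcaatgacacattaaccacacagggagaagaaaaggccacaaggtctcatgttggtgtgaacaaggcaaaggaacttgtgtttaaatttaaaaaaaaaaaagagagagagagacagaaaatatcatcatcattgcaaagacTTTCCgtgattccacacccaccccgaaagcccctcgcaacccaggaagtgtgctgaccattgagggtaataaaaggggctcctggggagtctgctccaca
Ccl3 (chr11:83649379-83649628): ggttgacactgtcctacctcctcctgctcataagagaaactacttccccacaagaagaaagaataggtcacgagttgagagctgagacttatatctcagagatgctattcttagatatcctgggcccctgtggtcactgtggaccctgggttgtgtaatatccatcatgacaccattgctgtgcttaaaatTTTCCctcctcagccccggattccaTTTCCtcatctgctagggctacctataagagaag
Cxcl10 (chr5:92348890-92349139): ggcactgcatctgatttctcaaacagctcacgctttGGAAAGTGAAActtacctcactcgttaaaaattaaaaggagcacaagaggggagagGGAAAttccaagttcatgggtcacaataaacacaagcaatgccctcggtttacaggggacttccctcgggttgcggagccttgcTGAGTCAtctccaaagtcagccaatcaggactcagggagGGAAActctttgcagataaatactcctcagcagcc
Xcl1 held 1 match to GGAAA, Ccl3 held 2 and Cxcl10 held 3, and GGAAA is present in 55.6% of the 32851 promoters of this length. Ccl1, whose RefSeq start lies inside the long GENCODE model, also held 3 (chr11:82179813-82180062, not shown). Of these 4 promoters only that of Cxcl10 held TGANTCA, with 1 match 74 bases before the start, and the interferon response form, with 1 match that overlaps a GGAAA. The shares of all promoters with these letters were 6.75% and 2.98%. The 1 kB form searched for, present in 0.356% of promoters, was in none of the 4. Other kB forms were not searched for, so this does not show that a promoter lacks kB sites. A match here is a description of letters, not evidence of a factor bound there.

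Libraries held 25.6 to 51 M counts. Summed CPM (counts scaled to the library total) of 8 CD8 T cell markers was 1713 to 5687, so the label of the cells and their markers go together. Markers of other spleen cells were also present, with 9 B cell markers summing to as much as 391 CPM at 4 h and 7 granulocyte markers to as much as 327 CPM. Their part in the results was not tested.

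With vehicle, 5 of the 6 genes were higher than in unstimulated cells at 4 h and 1, Ccl5, was lower; across all genes tested 33.9% rose and 41% fell (edgeR's quasi-likelihood test, Benjamini-Hochberg adjusted p under 0.05, the rule for every call below). At 24 h 4 were higher and 1 lower, beside 38.7% and 45.5% of all genes, and at 48 h 3 were higher and 2 lower, beside 38.3% and 45.1%. Between 4 h and 24 h all 6 fell, and between 24 h and 48 h 5 fell, beside 37.8% and 16.8% of all genes. The 6 genes took a median of 0.8314% of all counts in vehicle libraries at 4 h, against 0.008106% in unstimulated libraries. In these bulk samples, fewer cells of a type and less RNA per cell cannot be told apart.

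Scaled to exon length (RPKM, counts per kilobase of exon and library total), the order of the genes at 4 h with vehicle was Xcl1 at 6976 ± 610 RPKM (SD, n = 4), Ccl4 at 5345 ± 332, Ccl3 at 1145 ± 165, Cxcl10 at 39.2 ± 18, Ccl5 at 33.9 ± 4.31 and Ccl1 at 6.32 ± 1.5 RPKM. Cxcl10 and Ccl5 did not differ beyond their spread, and Cxcl10 was the higher in library C alone (66.02 against 35.84 RPKM). In unstimulated cells the order was another one, with Ccl5 first at 66.7 ± 7.41 RPKM, then Ccl4 at 7.49 ± 0.964, Cxcl10 at 3.8 ± 4.27, Xcl1 at 2.19 ± 0.176 and Ccl3 at 1.05 ± 0.238 RPKM. The place of Cxcl10 rests on library B (10.17 RPKM): without it Cxcl10 averaged 1.68 ± 0.601 RPKM and Xcl1 2.11 ± 0.107 RPKM (SD, n = 3), so that Cxcl10 came after Xcl1. Ccl1 had 3 counts in the 4 unstimulated libraries together. Exon length here is that of the gene model: 2252 bases for Cxcl10, its whole annotated span, and 2369 for Ccl1 in its long model. The RPKM of these 2 genes, and so their places in both orders, rest on those models.

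**Figure D1:**
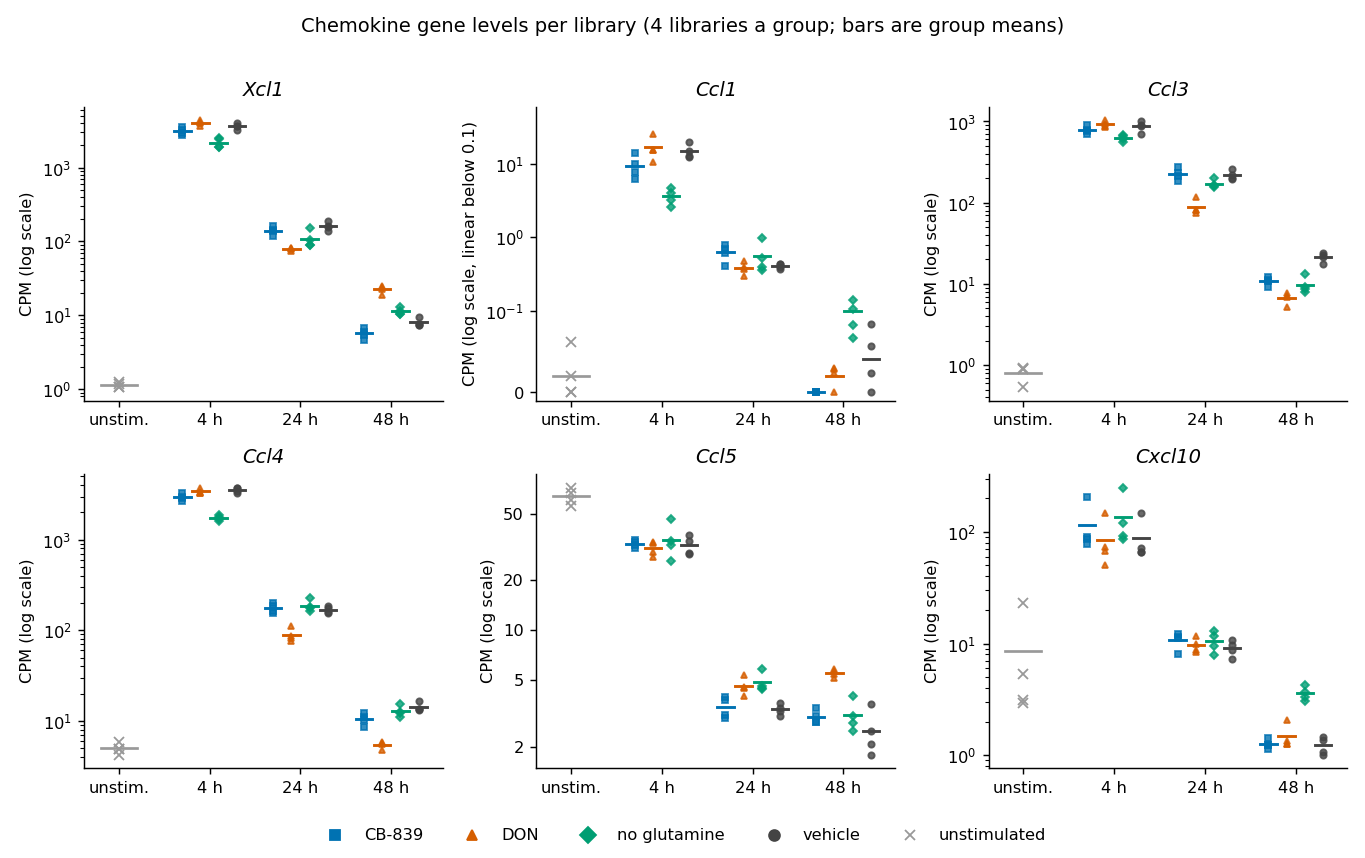
CPM of each gene in every library (log scale; linear below 0.1 for Ccl1) for unstimulated cells and for 4 conditions at 4 h, 24 h and 48 h, with bars for group means. Xcl1, Ccl3 and Ccl4 peaked at 4 h in all conditions, Ccl5 was highest in unstimulated cells at 55.9 to 72.3 CPM, and the letter C libraries gave the highest Cxcl10 of each condition at 4 h.

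Xcl1 had 1.08, 1.26, 1.06 and 1.17 CPM in unstimulated libraries, 3677, 4012, 3670 and 3234 CPM with vehicle at 4 h, 140.3, 162, 157 and 188 CPM at 24 h and 7.49, 7.72, 9.54 and 7.34 CPM at 48 h. Each of the 4 groups stood apart from the others without overlap, and the 48 h libraries were still above unstimulated ones (log2 fold change 3.08 ± 0.14 SE). Ccl4 had 4.87, 4.23, 4.92 and 5.78 CPM in unstimulated libraries, 3711, 3692, 3463 and 3246 CPM at 4 h, 159.8, 176, 156 and 185 CPM at 24 h and 13.04, 13.5, 16.6 and 13.6 CPM at 48 h. It was higher than in unstimulated cells by 9.72 ± 0.14 at 4 h (edgeR adjusted p = 2.65e-20), by 5.40 ± 0.12 at 24 h and by 1.80 ± 0.11 at 48 h.

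Ccl3 fell by less than its neighbour Ccl4 after 4 h. It had 0.890, 0.534, 0.913 and 0.891 CPM in unstimulated libraries, 899, 1015, 887 and 708 CPM at 4 h, 194, 219, 204 and 258 CPM at 24 h and 17.5, 22.7, 24.0 and 21.4 CPM at 48 h with vehicle. Between 4 h and 24 h it fell by 1.95 ± 0.13 on the log2 scale, whereas Ccl4 fell by 4.32 ± 0.11 and Xcl1 fell by 4.43 ± 0.11. Per exon length the 3 genes were close at 24 h, at 310 ± 38.2 RPKM for Xcl1, 285 ± 37 for Ccl3 and 256 ± 20.6 for Ccl4. Each vehicle library of that time had them in this order. At 48 h Ccl3 was first at 28 ± 3.64 RPKM, against 21.5 ± 2.45 for Ccl4 and 15.3 ± 1.96 for Xcl1.

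Ccl1 had 14.8, 20.05, 12.4 and 12.6 CPM with vehicle at 4 h and 0.377, 0.389, 0.436 and 0.431 CPM at 24 h. Set against the 3 counts of unstimulated cells, its count per library total was 827 times as high at 4 h (95% exact interval 282.6 to 4013, counting error only) and 21.87 times as high at 24 h (7.179 to 108.7). At 48 h it had 6 counts over the 4 vehicle libraries, and the test against unstimulated cells did not pass (edgeR adjusted p = 0.256).

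Ccl5 ran the other way. Its unstimulated libraries had 61.0, 55.9, 72.3 and 66.8 CPM, and vehicle libraries had 37.5, 29.3, 34.4 and 28.9 CPM at 4 h, 3.68, 3.39, 3.28 and 3.07 CPM at 24 h and 1.79, 2.06, 3.61 and 2.48 CPM at 48 h. All vehicle libraries lay below all unstimulated ones, and the log2 fold change against unstimulated cells was -0.74 ± 0.14 at 4 h (edgeR adjusted p = 0.000101), -3.95 ± 0.17 at 24 h (3.88e-14) and -4.42 ± 0.17 at 48 h. The step between 24 h and 48 h did not pass the test (-0.47, edgeR adjusted p = 0.0562), and it did without vehicle library C of 48 h (-0.73, adjusted p = 0.00141), in a fit of all 52 libraries (0.0462), with the replicate letter as a block (0.0426) and in DESeq2 (0.042). Markers of other cells fell over the same time: 6 NK cell markers summed to 10.8 to 18.1 CPM in unstimulated libraries and to 1.05 to 1.38 CPM with vehicle at 48 h, and 7 granulocyte markers to 24.7 to 187 CPM in unstimulated libraries and to 0.73 to 1.81 CPM at 48 h. Their part in the fall of Ccl5 was not tested.

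Cxcl10 had 3.11, 22.9, 5.35 and 2.92 CPM in unstimulated libraries, 72.3, 65.8, 149 and 65.9 CPM with vehicle at 4 h, 9.74, 8.84, 10.9 and 7.27 CPM at 24 h and 1.07, 1.46, 1.38 and 1.01 CPM at 48 h. Unstimulated library B and vehicle library C at 4 h were far above the others of their groups. Cxcl10 was higher than in unstimulated cells by 3.57 ± 0.54 at 4 h (edgeR adjusted p = 2.56e-05) and lower at 48 h (-2.53 ± 0.66, adjusted p = 0.00245; -1.35 without unstimulated library B). The 24 h difference of 0.39 ± 0.53 did not pass (edgeR adjusted p = 0.498), and without unstimulated library B it did (1.56, edgeR adjusted p = 0.000125).

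Each treatment was then set against vehicle of the same time, which asks how block or absence of glutamine use touches these genes. At 4 h Xcl1, Ccl1, Ccl3 and Ccl4 were lower without glutamine, where 37.6% of all genes were called and 21.4% were lower. With CB-839 and DON 0 of the 6 genes passed, beside 12.5% and 0% of all genes. For DON at 4 h, 0 of 18274 genes passed in edgeR, 1862 had an unadjusted p under 0.05 and DESeq2 called 27. At 24 h 0 of the 6 passed with CB-839, beside 4.95% of all genes. At that time 3 fell with DON, beside 58% of all genes called and 29.9% lower, and 1 rose and 2 fell without glutamine, beside 58.9% called, 30% higher and 28.9% lower. At 48 h Ccl1 had too few counts to be tested. Of the other 5 genes 3 fell with CB-839, beside 15.2% of all genes called and 6.73% lower. With DON 2 rose and 2 fell, beside 71.2% called, 35.6% in each direction, and without glutamine 2 rose and 1 fell, beside 54.3% called, 28% higher and 26.3% lower. With libraries scaled by their totals alone, the share of the called genes that were higher was 70.5% with DON and 61.4% without glutamine at 24 h (48.4% and 51% as scaled here), and 62.8% and 63.5% at 48 h (50% and 51.6%), and no called change of the 6 genes turned in direction. All treatments share the vehicle libraries of their time. Over all genes with enough counts, the vehicle libraries of 48 h differed most from each other. Their chi-square per degree of freedom between pairs of libraries reached 155, against 39.2 in the next group, medium without glutamine at 4 h. Every 48 h comparison with vehicle rests on this group, and the cause of its spread was not tested.

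**Figure D2:**
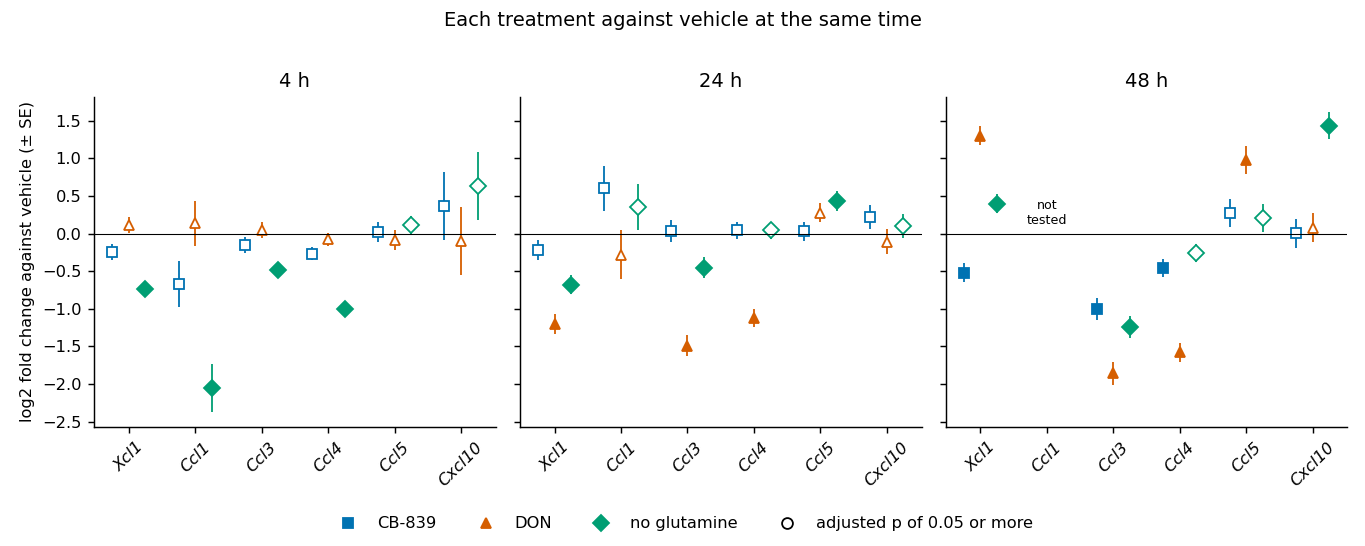
Log2 fold change of each gene against vehicle of the same time (points; bars are SE, n = 4 libraries a group; filled points passed an edgeR adjusted p of 0.05). At 48 h Xcl1 lay above 0 with DON (1.30) and without glutamine (0.40) and below 0 with CB-839 (-0.52), whereas Ccl3 lay below 0 with all 3.

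The difference of Xcl1, the XCR1 ligand, from vehicle changed sign with time for DON and for medium without glutamine. At 4 h it had 3206, 3486, 2897 and 2789 CPM with CB-839, 3670, 4375, 4080 and 4034 CPM with DON and 2498, 2443, 1876 and 1887 CPM without glutamine, against 3234 to 4012 CPM with vehicle. All 4 libraries without glutamine lay below all vehicle libraries (log2 fold change -0.74 ± 0.11, edgeR adjusted p = 1.93e-05), while DON (0.11 ± 0.11, with edgeR adjusted p of 0.745 to 0.973 over the 6 genes) and CB-839 (-0.24 ± 0.11, 0.167) overlapped vehicle. DON was above CB-839 (0.36, edgeR adjusted p = 0.0279, beside 16% of all genes called), a call that ended without CB-839 library A, C or D or DON library B or C (0.30 to 0.37, adjusted p of 0.054 to 0.0969). At 24 h Xcl1 had 118, 143, 137 and 164 CPM with CB-839, 79.7, 82.6, 75.4 and 82.5 CPM with DON and 90.4, 105, 89.2 and 149.7 CPM without glutamine, against 140.3, 162, 157 and 188 CPM with vehicle. The DON libraries were all below vehicle (-1.20 ± 0.13, edgeR adjusted p = 3.57e-07), and those without glutamine were lower too (-0.68 ± 0.13, 0.000195) although library D overlapped vehicle. DON was below CB-839 (-0.99, 3.63e-06), as was medium without glutamine (-0.46, 0.00556), which was above DON (0.53, 0.00203; 0.32 without library D of the glutamine-free group); 59.7%, 58% and 58.9% of all genes were called.

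At 48 h Xcl1 had 4.62, 6.77, 5.40 and 5.97 CPM with CB-839, 19.0, 23.9, 24.7 and 22.6 CPM with DON and 10.6, 11.4, 13.1 and 10.51 CPM without glutamine, against 7.49, 7.72, 9.54 and 7.34 CPM with vehicle. The 4 groups did not overlap, and the order was DON, medium without glutamine, vehicle and CB-839. Against vehicle the log2 fold change was 1.30 ± 0.12 with DON (edgeR adjusted p = 2.03e-08), 0.40 ± 0.13 without glutamine (0.0117) and -0.52 ± 0.13 with CB-839 (0.0113). The CB-839 call ended without CB-839 library A (-0.43, 0.0508). Medium without glutamine was below DON (-0.90, 2.15e-06) and above CB-839 (0.92, 8.86e-06), and DON was above CB-839 (1.82, 2.73e-10), where 68.6%, 51% and 70.4% of all genes were called.

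The changes of these effects with time were tested themselves in the 52 libraries, where 25% of genes passed for DON between 4 h and 24 h and 26.9% between 24 h and 48 h. The DON effect on Xcl1 moved by -1.30 between 4 h and 24 h (edgeR adjusted p = 9.33e-08) and by 2.47 ± 0.19 between 24 h and 48 h (8.75e-15). The effect of medium without glutamine on Xcl1 moved by 1.08 between 24 h and 48 h (1.59e-05), where 17.6% of genes passed. With DON, Xcl1 at 48 h was the first of the 6 genes per exon length, at 43.1 ± 4.81 RPKM, against 8.79 for Ccl3 and 8.22 for Ccl4; with vehicle it stood behind both.

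Ccl3 and Ccl4, which draw monocytes and T cells, fell with DON at both later times. At 24 h Ccl3 had 184, 230.1, 211 and 278 CPM with CB-839, 81.9, 81.3, 74.2 and 118 CPM with DON and 163, 161, 157 and 204 CPM without glutamine, against 194, 219, 204 and 258 CPM with vehicle. Ccl4 had 154, 187, 164 and 199.5 CPM with CB-839, 85.6, 81.2, 75.9 and 111 CPM with DON and 178, 182, 165 and 224 CPM without glutamine, against 159.8, 176, 156 and 185 CPM with vehicle. The DON libraries lay below all vehicle libraries for both genes (Ccl3 -1.49 ± 0.15, edgeR adjusted p = 8.97e-08; Ccl4 -1.13 ± 0.12, 1.2e-07). Without glutamine Ccl3 was lower (-0.45 ± 0.14, 0.00995, groups overlapping), and Ccl4 did not pass (0.04, 0.76). Both were above DON there (Ccl3 1.03, 5.54e-06; Ccl4 1.17, 4.72e-08).

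At 48 h Ccl3 had 9.04, 11.3, 10.97 and 12.1 CPM with CB-839, 5.18, 7.03, 7.81 and 6.92 CPM with DON and 8.05, 8.72, 13.2 and 9.06 CPM without glutamine, against 17.5, 22.7, 24.0 and 21.4 CPM with vehicle. All 12 treated libraries lay below all vehicle libraries: the log2 fold change was -1.003 ± 0.15 with CB-839 (edgeR adjusted p = 0.000194), -1.86 ± 0.16 with DON (4.52e-09) and -1.24 ± 0.15 without glutamine (1.46e-06). Ccl4 had 8.46, 11.1, 10.2 and 12.2 CPM with CB-839, 5.51, 5.79, 4.72 and 5.66 CPM with DON and 11.1, 12.5, 15.2 and 12.2 CPM without glutamine, against 13.04, 13.5, 16.6 and 13.6 CPM with vehicle. It fell with DON (-1.58 ± 0.13, 2.58e-09), and with CB-839 (-0.46 ± 0.12, 0.0148) except without CB-839 library A (-0.37, 0.0635). Without glutamine it did not pass (-0.26 ± 0.12, 0.0732), and without library C of that group it did (-0.36, 0.0206).

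At 4 h both genes fell without glutamine, while neither passed with DON or CB-839. Ccl4 had 2937, 3259, 2704 and 2875 CPM with CB-839, 3286, 3772, 3346 and 3242 CPM with DON and 1864, 1793, 1600.1 and 1706 CPM without glutamine, against 3711, 3692, 3463 and 3246 CPM with vehicle. Ccl3 had 766, 899, 793 and 710.0 CPM with CB-839, 874, 1038, 929 and 859 CPM with DON and 672, 660.4, 606 and 562 CPM without glutamine, against 899, 1015, 887 and 708 CPM with vehicle. The libraries without glutamine were the lowest 4 of 16 for both genes (Ccl4 -1.01 ± 0.09, edgeR adjusted p = 6.81e-08; Ccl3 -0.48 ± 0.11, 0.00126). Medium without glutamine was also below CB-839 (Ccl4 -0.74, 3.75e-06) and below DON (Ccl4 -0.93), where 31.3% and 36.1% of all genes were called. The DON effect moved between 4 h and 24 h by -1.52 for Ccl3 (2.23e-07) and by -1.03 for Ccl4 (4.74e-06). The effect of medium without glutamine on Ccl4 moved by 1.10 in the same interval (7.58e-07), where 28.5% of genes passed. For Ccl3 this move was 0.07 and did not pass (edgeR adjusted p = 0.841). Ccl3 was lower without glutamine at each of the times.

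CB-839 at 4 h gave small differences, and calls for Xcl1, Ccl1 and Cxcl10 turned on the replicate letter. The letters paired CB-839 with vehicle libraries at 4 h (correlation of deviations 0.547 to 0.677). With the letter as a block, 4 of 6 genes passed in edgeR, beside 2913 of the 18274 genes tested. Without it 0 of 6 passed, beside 2282. The 4 were Xcl1 (-0.25, adjusted p = 0.0266), Ccl1 (-0.71, 0.000233), Ccl4 (-0.27, 0.0105) and Cxcl10 (0.35, 0.032). Of these, Ccl4 also passed without the block in DESeq2 (adjusted p = 0.0268). In edgeR it passed with library totals (adjusted p = 0.00973), with the 8 libraries compared (0.032) and without CB-839 library B (0.0219). Xcl1 at 24 h passed only with the block (-0.22, 0.0456, against 0.393 without it; correlation 0.601 to 0.751). The effect of CB-839 on Ccl3 moved by -1.03 between 24 h and 48 h (edgeR adjusted p = 0.00616), where 0.926% of all genes passed.

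The ratio of the neighbours Ccl4 and Ccl3 within a library was chosen after its values were seen and is given as a description. An exact two-sided permutation test of 4 libraries against 4, adjusted over the 9 comparisons made, gave no value under 0.0514 and supports no call. The smallest p this test can give before adjustment is 0.02857. Each comparison without overlap reached it, so a larger difference could not have lowered the value. The number of Ccl4 counts per Ccl3 count at 48 h was 0.935, 0.981, 0.932 and 1.01 with CB-839, 1.06, 0.824, 0.604 and 0.818 with DON and 1.37, 1.44, 1.15 and 1.35 without glutamine, against 0.744, 0.594, 0.693 and 0.637 with vehicle. CB-839 and medium without glutamine lay above vehicle in all 4 libraries (log2 difference 0.54 and 0.99), and DON overlapped it (0.29). At 24 h it averaged 0.787 ± 0.0520 with CB-839, 1.003 ± 0.0434 with DON and 1.09 ± 0.0330 without glutamine, against 0.778 ± 0.0482 with vehicle (SD, n = 4 each; log2 differences 0.02, 0.37 and 0.49), with CB-839 overlapping vehicle and the other groups above it. At 4 h the ratio was 2.77, 2.72, 2.64 and 3.04 without glutamine, against 4.13, 3.64, 3.90 and 4.58 with vehicle, which is lower in all 4 libraries (-0.54), while CB-839 (3.73 ± 0.276, log2 difference -0.12) and DON (3.69 ± 0.0869, -0.13) overlapped vehicle.

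**Figure D3:**
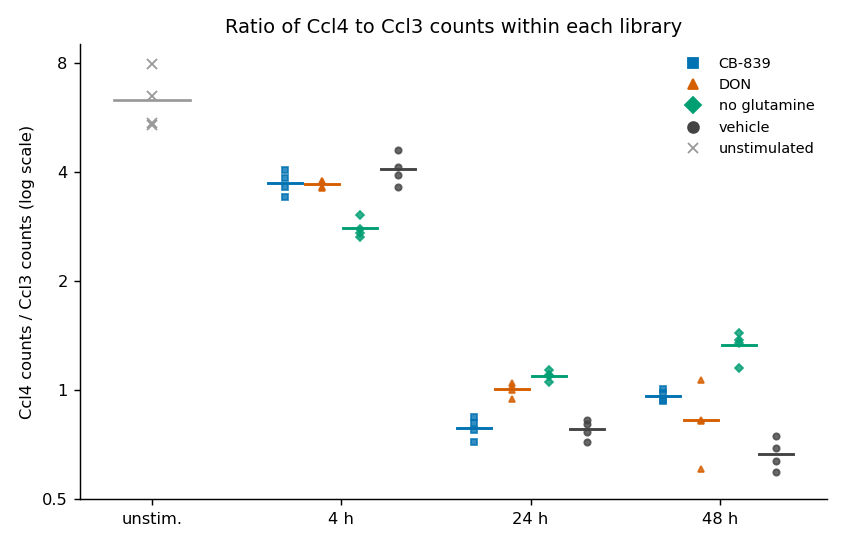
Ccl4 counts divided by Ccl3 counts within each library (log scale), with bars for group means. Without glutamine the ratio lay below vehicle at 4 h (2.64 to 3.04 against 3.64 to 4.58) and above it at 48 h (1.15 to 1.44 against 0.594 to 0.744).

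Ccl5, the chemokine stored by memory T cells, was higher with DON at 48 h and without glutamine at 24 h. At 48 h it had 2.83, 3.40, 3.05 and 2.81 CPM with CB-839, 5.87, 5.49, 5.66 and 5.20 CPM with DON and 2.49, 2.79, 4.03 and 3.04 CPM without glutamine, against 1.79, 2.06, 3.61 and 2.48 CPM with vehicle. The DON libraries lay above all vehicle libraries (0.98 ± 0.18, edgeR adjusted p = 9.46e-05). The others did not pass (CB-839 0.27, 0.374; no glutamine 0.21, 0.364), but both passed without vehicle library C, the highest of its group (0.53, 0.0167 with CB-839; 0.47, 0.0135 without glutamine).

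At 24 h Ccl5 had 3.80, 3.96, 3.11 and 2.97 CPM with CB-839, 4.48, 4.58, 5.41 and 4.06 CPM with DON and 4.48, 4.45, 5.87 and 4.64 CPM without glutamine, against 3.68, 3.39, 3.28 and 3.07 CPM with vehicle. In CPM, scaled by library totals alone, libraries with DON and without glutamine all lay above vehicle. For DON against vehicle, library totals moved the median of all genes by 0.19 (log2) from the scaling used in the test. The difference passed without glutamine (0.43 ± 0.13, edgeR adjusted p = 0.00646), though not in a fit of all 52 libraries (0.38, 0.0626). Library C without glutamine, the highest in Ccl5, was also the highest in granulocyte markers, which summed to 2.29 to 7.83 CPM without glutamine and to 0.80 to 2.38 CPM with vehicle; without that library Ccl5 was at 0.33 (edgeR adjusted p = 0.0375). CD4 T cell markers summed to 24.9 to 34.98 CPM without glutamine and to 2.28 to 4.26 CPM with vehicle, nearly all of it Zbtb7b, with Cd4 itself at 0.0368 and 0.0357 CPM. Their part in this difference was not tested. With DON the difference was 0.28 ± 0.13 (0.0708), and it passed when libraries were scaled by their totals alone (0.47, 0.00391) or without DON library D (0.32, 0.0479). At 4 h Ccl5 spanned 26.01 to 47.1 CPM without glutamine, 27.5 to 34.2 CPM with DON and 31.4 to 34.9 CPM with CB-839, against 28.9 to 37.5 CPM with vehicle, with overlap in each comparison. At 48 h 12 myeloid markers summed to 44.05 to 47.4 CPM with DON and to 4.52 to 5.31 CPM with vehicle; most of this was Cd68 (23.2 ± 1.07 against 2.12 ± 0.34 CPM), while Csf1r and Itgam averaged 0.140 and 0.0772 CPM with DON. Granulocyte markers (2.90 to 10.99 CPM with DON, 0.73 to 1.81 with vehicle), B cell markers (11.5 to 12.2 and 3.25 to 4.70) and NK cell markers (1.96 to 3.63 and 1.05 to 1.38) were also above vehicle without overlap. Their part in the level of Ccl5 was not tested.

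Ccl1, the CCR8 ligand, was the member with the steepest fall without glutamine at 4 h. It had 9.84, 13.9, 6.16 and 7.73 CPM with CB-839, 15.5, 25.2, 10.7 and 15.7 CPM with DON and 3.96, 4.74, 3.20 and 2.61 CPM without glutamine, against 14.8, 20.05, 12.4 and 12.6 CPM with vehicle. The libraries without glutamine lay below all others (-2.05 ± 0.32 against vehicle, edgeR adjusted p = 0.000132; -1.38 against CB-839, 0.00382; -2.18 against DON). CB-839 overlapped vehicle by 1 library (-0.67 ± 0.30, 0.197). In each of these conditions library B was the highest.

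By 24 h Ccl1 was low in all conditions. It had 0.686, 0.787, 0.407 and 0.617 CPM with CB-839, 0.294, 0.478, 0.367 and 0.390 CPM with DON and 0.355, 0.529, 0.400 and 0.971 CPM without glutamine, against 0.377, 0.389, 0.436 and 0.431 CPM with vehicle. The treated groups overlapped vehicle and did not pass (edgeR adjusted p = 0.294, 0.476 and 0.338). The effect of medium without glutamine moved by 2.45 between 4 h and 24 h (edgeR adjusted p = 3.21e-05). At 48 h the 4 libraries together held 0 counts with CB-839, which allows up to 0.0178 CPM over the group (3 counts), 3 counts with DON and 16 without glutamine, against 6 with vehicle.

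Cxcl10, the CXCR3 ligand, was higher without glutamine at 48 h. It had 1.41, 1.24, 1.13 and 1.24 CPM with CB-839, 1.26, 1.33, 2.09 and 1.26 CPM with DON and 3.67, 3.03, 4.28 and 3.35 CPM without glutamine, against 1.07, 1.46, 1.38 and 1.01 CPM with vehicle. All 4 libraries without glutamine lay above the 12 others, by 1.43 ± 0.18 against vehicle (edgeR adjusted p = 1.71e-06), 1.43 against CB-839 (1.96e-06) and 1.36 against DON (1.37e-06). Over the alternative runs in edgeR and DESeq2 the adjusted p against vehicle reached 0.0458 at most. CB-839 (0.00, 0.994) and DON (0.08, 0.737) overlapped vehicle. Marker sums were also above vehicle without glutamine and without overlap for CD4 T cells (29.3 to 36.7 CPM without glutamine, 3.86 to 5.43 with vehicle), myeloid cells (8.22 to 10.6 and 4.52 to 5.31), dendritic cells (2.89 to 3.80 and 0.94 to 1.04) and granulocytes (1.92 to 3.32 and 0.73 to 1.81). The first of these was nearly all Zbtb7b (31.9 ± 2.85 against 4.52 ± 0.622 CPM) and the third Zbtb46 (3.07 ± 0.402 against 0.721 ± 0.0686 CPM), with Cd4 at 0.0538 and Itgax at 0.115 CPM without glutamine. Their part in the rise of Cxcl10 was not tested. At 24 h Cxcl10 was 12.1, 11.5, 11.3 and 8.0004 CPM with CB-839, 8.67, 10.0, 11.7 and 8.35 CPM with DON and 11.8, 9.56, 12.97 and 7.87 CPM without glutamine, against 9.74, 8.84, 10.9 and 7.27 CPM with vehicle, with overlap throughout and no call. The effect of medium without glutamine moved by 1.34 between 24 h and 48 h. That move did not pass (edgeR adjusted p = 0.198), so a difference between these times is not shown.

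At 4 h Cxcl10 had 86.5, 78.0, 206 and 89.5 CPM with CB-839, 73.3, 66.8, 146 and 49.98 CPM with DON and 91.7, 121, 249 and 86.4 CPM without glutamine, against 72.3, 65.8, 149 and 65.9 CPM with vehicle. Library C was the highest in each condition. Without glutamine Cxcl10 was above vehicle at all 4 letters but did not pass (0.63 ± 0.45, edgeR adjusted p = 0.305); with the letter C libraries left out of all conditions, a repeat chosen after seeing the data, it passed (0.55, 0.0131). Granulocyte markers were also highest in library C, summing to 177 CPM with CB-839, 128 with DON and 327 without glutamine, against 114 with vehicle, while the other libraries of 4 h lay between 13.4 and 45.4 CPM. Myeloid markers in library C summed to 50.6, 35.5 and 103 CPM in the treated groups, against 30.7 CPM with vehicle. In unstimulated cells library C had 187 CPM of granulocyte markers with 5.35 CPM of Cxcl10, and library B, with 26.4 CPM of these markers, had 22.9 CPM of Cxcl10. The part of these cells in the 4 h values was not tested.

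**Figure D4:**
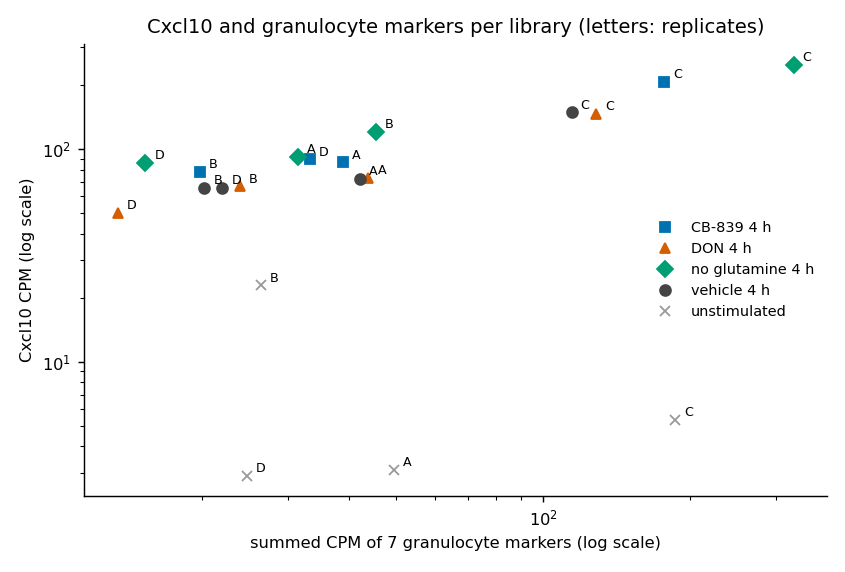
Cxcl10 CPM against the summed CPM of 7 granulocyte markers in each library at 4 h and in unstimulated cells (both axes log; letters are replicates). Among the 4 h libraries those lettered C are highest on both axes, at 146 to 249 CPM of Cxcl10, whereas unstimulated library C is high in the markers alone.

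The receptors of these chemokines, also expressed by T cells, moved on their own courses. Of 7 receptors, 6 were in the table, and Xcr1 was not analysed here. With vehicle at 4 h against unstimulated cells 2 of 3 tested rose, beside 33.9% of all genes: Ccr8 (7.21 ± 0.30) and Cxcr3 (2.46 ± 0.11). Ccr8, the CCL1 receptor, fell beside its ligand without glutamine at 4 h (-0.61, edgeR adjusted p = 0.000338), and with CB-839 (-0.86, 8.25e-05). At 24 h it averaged 1.49 ± 0.26 CPM without glutamine and 13.7 ± 3.3 CPM with DON, against 7.82 ± 1.4 CPM with vehicle (-2.49, 4.43e-10 without glutamine; 0.63, 0.00128 with DON). Cxcr3, the CXCL10 receptor, averaged 73.5 ± 3.0 CPM with CB-839, 19.1 ± 0.9 with DON and 23.9 ± 3.2 without glutamine at 48 h, against 50.7 ± 4.8 CPM with vehicle (0.52, 0.000481; -1.59, 1.33e-11; -1.18, 2.62e-09). It was thus lower in the cultures without glutamine, where Cxcl10 was higher. Ccr1 stayed at or below a mean of 0.53 CPM in all groups.

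Genes of the interferon axis, which induces Cxcl10, moved without glutamine at all 3 times. Of those tested, 9 rose and 2 fell of 20 at 4 h, beside 16.2% and 21.4% of all genes. At 24 h 13 rose and 3 fell of 20, beside 30% and 28.9%, and at 48 h 9 rose and 4 fell of 19, beside 28% and 26.3%. Their median log2 fold change was 0.58 at 4 h, 0.59 at 24 h and 0.14 at 48 h, beside 0.05, 0.02 and 0.02 over all genes tested. Irf1, a transcription factor of the interferon response, averaged 654 ± 67 CPM without glutamine at 4 h, against 248 ± 48 CPM with vehicle (1.41, edgeR adjusted p = 2.74e-06), and 287 ± 6.6 CPM at 48 h, against 135 ± 12 CPM (0.98, 4.43e-10). Ifng itself was lower without glutamine (-1.51 at 4 h, 2.14e-06; -2.67 at 24 h). CB-839 at 48 h gave 13 higher and 1 lower of 19 interferon genes, beside 8.5% and 6.73% of all genes, at a median of 0.34 beside -0.01, with Cxcl10 at 0.00. DON at 48 h gave 6 higher and 9 lower, beside 35.6% each way, at a median of -0.01 beside 0.00.

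Factors that carry the antigen receptor signal to cytokine genes were counted in the same way. Without glutamine at 4 h 14 of 24 rose and 0 fell, beside 16.2% and 21.4% of all genes (median 0.40 beside 0.05 over all genes), with Egr1 at 1.90, Fosl2 at 1.42 and Tbx21 at 0.93, while Xcl1, Ccl1, Ccl3 and Ccl4 fell. With DON at 24 h 2 rose and 15 fell, beside 28.1% and 29.9% of all genes (median -0.37 beside -0.01), among them Nfatc2 (-1.17), Tbx21 (-1.03) and Nfkb2 (-0.73). At 48 h with DON 6 rose and 14 fell, beside 35.6% each way (median -0.41 beside 0.00), including Tbx21 (-2.65), a factor of effector T cells, and Irf4 (-1.71), and Jun rose (1.43).

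Of 30 other chemokine ligand genes few were expressed, and 4 to 13 were tested in a comparison. With vehicle at 4 h 8 of 11 rose and 1 fell against unstimulated cells, beside 33.9% and 41% of all genes, with Ccl22 at 10.04, Cxcl9, a relative of Cxcl10, at 7.23 and Ccl9 at 3.92. At 48 h 2 of 4 rose with DON, beside 35.6% of all genes: Ccl25 (37.5 ± 4.4 CPM with DON against 3.83 ± 0.69 CPM with vehicle; log2 fold change 3.11, edgeR adjusted p = 8.39e-15) and Pf4 (2.35). Ccl25 is known as a ligand of CCR9 in thymus and gut. Pf4 is also among 8 erythroid and platelet markers. These, with Pf4 itself, summed to 4.12 to 7.92 CPM with DON at 48 h and to 1.41 to 1.95 CPM with vehicle. The part of such cells in the rise of Pf4 was not tested.

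Over the 13 group means of log2(CPM + 1), Xcl1 was correlated with Ccl4 at r = 0.979 and with Ccl3 at 0.954, Ccl3 with Ccl4 at 0.965, and Cxcl10 with Ccl4 at 0.929. Ccl5 stood apart, at 0.283 with Ccl3, 0.478 with Xcl1 and 0.761 with Cxcl10. Of 9088 genes with a mean of 10 CPM or more in a group, those most like each gene were Sar1a (0.984), Gfod1 (0.980) and Spry1 (0.979) for Xcl1, Camsap1 (0.983), Atf6b (0.979) and Gzmc (0.977) for Ccl1, Nfkbib (0.975), Npas4 (0.971) and Alpl (0.970) for Ccl3, and Orai1 (0.983), Xcl1 (0.979) and Rasgef1b (0.976) for Ccl4. For Cxcl10 they were Nr4a1 (0.986), Furin (0.985) and Slc41a1 (0.985). For Ccl5 the first 2 were Mpo (0.993) and Prtn3 (0.993), granule genes of granulocytes, followed by Atg16l1 (0.992). The group means share libraries and the step of stimulation, and the values are a description.

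H3K27ac, a mark of active promoters and enhancers, and H3K27me3, a mark of Polycomb-repressed genes, were mapped at 48 h by CUT&RUN, which cuts chromatin at antibody-bound sites. There was 1 deposited list per treatment and mark, merged from 2 samples by the authors, so no test between treatments can be made. An H3K27ac peak lay within 1000 bases of the start of Xcl1, Ccl3 and Ccl4 in the list without glutamine and in the vehicle list, where 9.84% of 55447 gene starts and 14.4% had one. At Xcl1 it spanned chr1:164933279-164936171 without glutamine and chr1:164933142-164935789 with vehicle, and both contain the 250 bases shown above. At Ccl3 it spanned chr11:83645351-83649784 without glutamine and chr11:83646848-83649960 with vehicle, which also contain the bases shown. At Ccl4 it spanned chr11:83662059-83665048 without glutamine and chr11:83660968-83664063 with vehicle. The authors' signal in the 2 samples was 4.04 and 7.70 at Ccl3 without glutamine and 5.83 and 7.19 with vehicle, 4.53 and 3.82 at Ccl4 without glutamine and 7.09 and 4.59 with vehicle, and 4.26 and 4.68 at Xcl1 without glutamine and 4.25 and 3.72 with vehicle. These values rank peaks within a list only.

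**Figure D5:**
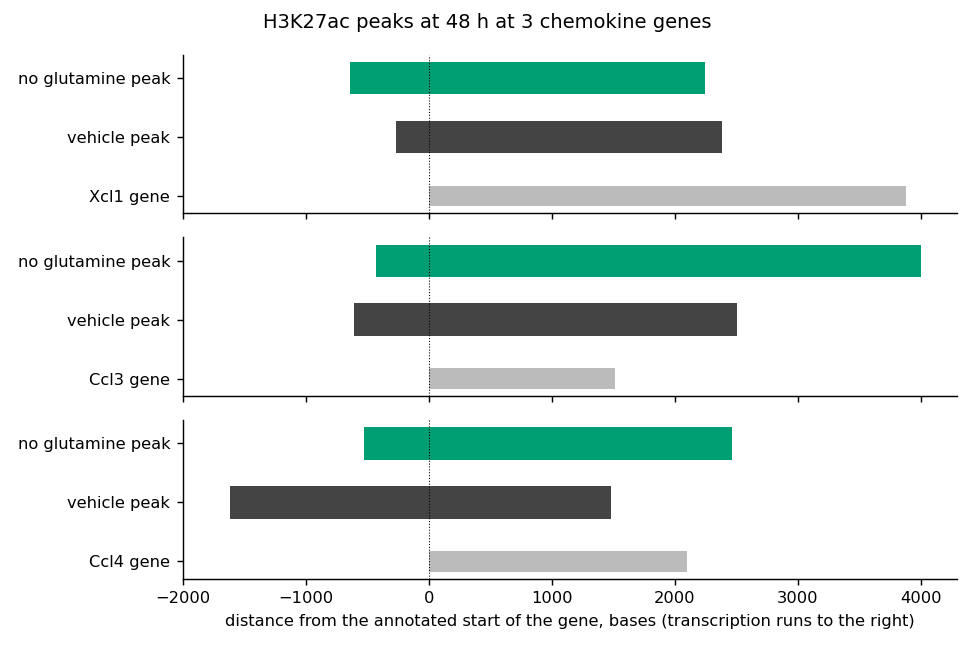
Spans of the H3K27ac peaks at 48 h around the annotated starts of Xcl1, Ccl3 and Ccl4 (x axis in bases from the start, transcription to the right) in the lists without glutamine and with vehicle, above the gene (grey). In both lists each peak covers the start.

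The CB-839 and DON lists of H3K27ac held 117 and 33 peaks, against 9681 with vehicle, and none at these genes. They hold so few peaks that a gene missing from them says little, and 0.245% and 0.108% of all gene starts had a peak there. Ccl1, Ccl5 and Cxcl10 had no H3K27ac peak at the start in the 4 lists. None of the 6 genes had an H3K27me3 peak at its start in the 4 lists of 12417 (CB-839), 3533 (DON), 8795 (no glutamine) and 13556 (vehicle) peaks. The start used for Ccl1 is the far end of its long GENCODE model. Inside that model an H3K27me3 peak covered 6362 bases with CB-839 and 3343 bases without glutamine, against 7989 bases with vehicle, and the DON list had none there. These peaks lay upstream of the RefSeq start of Ccl1, outside the gene as it runs from that start. The vehicle peak spanned chr11:82195257-82203245, and the 250 bases before the RefSeq start are chr11:82179813-82180062. The nearest to Cxcl10 was 2374 bases from its start with CB-839 (chr5:92339797-92346515), 3595 with DON (chr5:92339930-92345294) and 5655 without glutamine (chr5:92341076-92343234), and the vehicle peak (chr5:92344214-92347061) covered 424 bases at the 3′ end of the gene.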

How the data were processed

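RNA was measured in 52 libraries of 13 groups, and CUT&RUN peaks at 48 h were used for 4 treatments and both H3K27 marks. Counts per gene were made by the authors with featureCounts 2.0.1 on GENCODE M25 exons (mm10) and without a strand option, per the file headers; the library preparation was stranded per the labels' protocols. The submitters' processing notes list STAR, Bowtie2, MACS2, deepTools and FastQC, none with a version. The deposited peak lists hold peaks merged from 2 samples at an irreproducible discovery rate (IDR) of 0.05, with the authors' signal per replicate, IDR score and -log10 IDR columns. Promoter sequences came from a RefSeq table.

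Counts were tested as deposited with edgeR 4.0.16 in R 4.3.3 (TMM scaling, filterByExpr by group, robust quasi-likelihood, Benjamini-Hochberg over all genes tested). The 16 libraries of a time shared 1 fit, as did unstimulated and vehicle libraries, and changes of a treatment effect between times were fitted in all 52 libraries. These fits held 18274 (4 h), 16269 (24 h), 16173 (48 h), 18317 (activation) and 21069 genes (52 libraries). Libraries held 25.6 to 51 M counts, no replicate was merged, and intervals and floors cover counting error only. Levels are CPM over library totals, and RPKM over the exon length in the count table.

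Whether libraries of 1 letter belong together was checked from the correlation of their deviations from group means. Every pair was above 0.1 in 8 of the comparisons, among them CB-839 against vehicle at 4 h and 24 h, and DON against vehicle at 4 h (0.188 to 0.665) and 24 h (0.116 to 0.616). What a letter stands for is not given in the labels, so the fit without the block is the one reported.

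The 6 genes and all gene lists were chosen with earlier results of these data known, and lists are described by counts and medians with no set test. The 6 genes are named throughout. From lists, genes with the 3 smallest adjusted p values in a comparison, and Ifng, Irf1 and chemokine receptors, could be named; some listed genes are not reported here. The genes most like a member had the highest Pearson r. Alternatives were RLE scaling, library totals, no low-count filter, DESeq2 1.42.0, the replicate block, the 8 libraries compared, all 52 libraries, leaving out each library, a stricter IDR of 0.01, a window of 2500 bases and at least 0.5 of a peak inside the window.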

Additional observations from a re-analysis of the deposited data

Results flagged for a closer look

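Among the 78 sets of 4 libraries (6 genes in 13 groups), 9 held a library far from the other 3 by Dixon's criterion, which chance gives in about 1 of 20 sets. With vehicle at 48 h library C was high for Xcl1 (9.54 CPM) and Ccl4 (16.6 CPM), and with DON at 48 h library C was high for Cxcl10 (2.09 CPM). At 4 h library C was high for Cxcl10 with CB-839 (206 CPM) and with vehicle (149 CPM). Without glutamine at 24 h library D was high for Ccl3 (204 CPM) and library C for Ccl5 (5.87 CPM). In unstimulated cells library B was low for Ccl3 (0.534 CPM) and high for Cxcl10 (22.9 CPM).

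Treatment effects that differed between times, by the test of the difference itself in edgeR, were found for 5 of the 6 genes, all but Cxcl10. This count pools all such tests, and the share of all genes with a change in any of them was not counted. Singly, the tests passed 25% and 26.9% of all genes for DON and 28.5% and 17.6% without glutamine. For CB-839 they passed 131 and 195 of 21069 genes. The CB-839 effect on Ccl3 moved by -1.03 between 24 h and 48 h. The DON effect moved between 4 h and 24 h by -1.30 for Xcl1, -1.52 for Ccl3 and -1.03 for Ccl4. Between 24 h and 48 h it moved by 2.47 for Xcl1, by -0.48 for Ccl4 (edgeR adjusted p = 0.0431) and by 0.67 for Ccl5 (0.0385). The change for Ccl4 ended without vehicle library A or C of 24 h, vehicle library C of 48 h, DON library D of 24 h or DON library C of 48 h (-0.44 to -0.34), and that for Ccl5 without vehicle library A of 24 h or vehicle library A or B of 48 h (0.54 to 0.63). The effect of medium without glutamine moved between 4 h and 24 h by 2.45 for Ccl1 and 1.10 for Ccl4, and between 24 h and 48 h by 1.08 for Xcl1 and -0.78 for Ccl3.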

How the results depend on the processing

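No single-gene result that passed the test turned in direction under any alternative run. Scaling by library totals moved the median of all genes by -0.30 to 0.19 on the log2 scale. RLE scaling changed no call, DESeq2 added 4, the replicate block added 14, library totals added 5 and ended 1, and lack of a low-count filter ended 4. The 8 libraries compared added 2 and ended 2, all 52 libraries added 2 and ended 3, the letter C libraries left out together added 2 and ended 2, and leaving out 1 library added 13 and ended 22. For CB-839 against vehicle at 4 h, 0 of the 6 genes passed, but 1 did with the 8 libraries, DESeq2 or library totals and 4 with the replicate block, and 0 to 1 with 1 library left out. At 24 h the block gave 1 in place of 0. At 48 h the 8 libraries gave 1 in place of 3, and leaving out 1 library gave 1 to 4. For the CB-839 effect between 4 h and 24 h the block gave 1 in place of 0 (0 to 1 with 1 library left out), and between 24 h and 48 h DESeq2 gave 3 in place of 1. For the DON effect between 24 h and 48 h no filter gave 1 in place of 3 (1 to 3 with 1 library left out). Over all genes no filter gave 5132 there in place of 5671. For DON against CB-839 at 4 h library totals gave 2, no filter and the letter C libraries left out 0, and the block 4, in place of 1 (0 to 2 with 1 library left out). Over all genes 2922 were called there, against 3449, 2120, 2565 and 3568 in these 4 settings in turn. The paired letters changed no call beyond those given with the results and, for DON against CB-839 at 24 h, Cxcl10 (-0.33, edgeR adjusted p = 0.00336). At an IDR of 0.01 the H3K27ac lists without glutamine and with vehicle hold 0 peaks in the whole genome, so the counts of 0 at these genes (in place of 3 each) were fixed. With a window of 2500 bases 1 gene, Cxcl10, had an H3K27me3 peak with CB-839 and with vehicle, in place of 0. Without the pairing check met, the block also passed Cxcl10 without glutamine at 4 h (0.60, edgeR adjusted p = 0.000276). Over all genes, the CB-839 calls at 4 h numbered 2282, against 2913 with the block, 1465 with no filter and 1518 in all 52 libraries. They numbered 3048 with the 8 libraries, 2625 with DESeq2 and 2682 with library totals. At 24 h they numbered 806, against 1840 with the block, 1295 with DESeq2, 441 with the 8 libraries and 229 in all 52, and at 48 h 2464, against 1054 with the 8 libraries and 1166 in all 52. Changes of the CB-839 effect numbered 131 between 4 h and 24 h, against 439 with RLE scaling, 436 with library totals and 723 with DESeq2. Between 24 h and 48 h they numbered 195, against 446, 488 and 867. With the block they numbered 173 in the earlier interval and 248 in the later one. For DON at 4 h, 0 genes became 8 with library totals, 25 with the 8 libraries and 27 with DESeq2. Depth limits Ccl1, whose groups held 57 to 114 counts at 24 h and 0 to 16 at 48 h. The cause of these differences was not tested.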
